A study of Mus musculus with 8 samples.

Results

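Macrophages and monocytes of the mouse liver were taken here as cell barcodes with transcripts of at least 3 of 14 genes. These were the complement genes C1qa, C1qb and C1qc, the Kupffer cell genes Cd5l, Clec4f and Vsig4, the macrophage genes Adgre1 and Csf1r, and the monocyte genes Ccr2, Ly6c2, Chil3, Ms4a6c, Clec4a1 and Clec4a3. Barcodes with 2 or more of the sinusoidal endothelial genes Stab2, Clec4g, Oit3 and Gpr182, or 2 or more of the B cell genes Cd79a, Cd79b and Ms4a1, were left out. The members were thus chosen by their own UMI counts. The rule found 109 members among 3192 barcodes (3.41%). Of these, 69 had at least 2 of the 3 C1q genes and 40 had fewer. Because of this choice, their levels of these genes are a description and carry no test.

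The study sequenced single stromal cells from the livers of 8 C57BL/6 mice, all labelled male, with 1 library per mouse on the 10x Genomics platform. The 4 control mice ate chow, and the 4 HFHC mice ate a diet that the design text calls high in fat and cholesterol and the sample titles call high in fat and calories. Per the labels the mice were bought as animals of 6 to 8 weeks and had free access to the diet for 20 to 32 weeks. Non-parenchymal cells freed of dead cells were sorted by antibodies to PDPN, CD146, CD31 and CD45 so as to enrich endothelial cells. Macrophages and monocytes carry CD45, so the sort could set how many of them remained. The sources used here do not give the gates.

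Kupffer cells are the resident macrophages of the liver sinusoids, where they clear particles, old red cells and lipoproteins from the blood. Monocytes are made in the bone marrow, enter the liver from the blood and can become macrophages there. C1q, the first component of the classical complement pathway, is made largely by macrophages, while Ly6c2, Ccr2 and Chil3 mark the classical monocyte. Antigen-presenting cells of this lineage display peptides on MHC class II molecules, which need the invariant chain Cd74.

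The 3 C1q genes are neighbours on the minus strand of chromosome 4 in the mm10 build, C1qb at chr4:136880129-136886187, C1qc at chr4:136889804-136893065 and C1qa at chr4:136895917-136898803. Chil3, a chitinase-like protein secreted by monocytes, lies at chr3:106147554-106167564. H2-Aa, the alpha chain of the MHC class II molecule I-A, lies at chr17:34282744-34287823. The 250 bases before the RefSeq start of C1qb, Chil3 and H2-Aa (GRCm38.p6) are given 5′ to 3′ because these genes stand for the macrophage, monocyte and antigen-presenting members described next. Capitals mark AGGAAG on either strand in C1qb and Chil3, the core that PU.1, the ETS factor of myeloid cells, binds, and CCAAT on either strand in H2-Aa, the core of the Y box of MHC class II promoters.
C1qb, chr4:136886201-136886450, minus strand: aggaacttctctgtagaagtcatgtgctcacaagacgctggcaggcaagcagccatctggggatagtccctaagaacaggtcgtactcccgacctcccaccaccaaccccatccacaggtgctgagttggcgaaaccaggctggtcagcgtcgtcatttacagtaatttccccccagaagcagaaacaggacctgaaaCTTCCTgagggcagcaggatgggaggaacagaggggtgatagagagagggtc
Chil3, chr3:106167565-106167814, minus strand: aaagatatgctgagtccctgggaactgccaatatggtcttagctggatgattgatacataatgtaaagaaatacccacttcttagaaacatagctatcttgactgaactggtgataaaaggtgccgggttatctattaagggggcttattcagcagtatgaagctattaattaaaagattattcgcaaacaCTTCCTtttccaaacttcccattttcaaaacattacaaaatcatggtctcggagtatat
H2-Aa, chr17:34287824-34288073, minus strand: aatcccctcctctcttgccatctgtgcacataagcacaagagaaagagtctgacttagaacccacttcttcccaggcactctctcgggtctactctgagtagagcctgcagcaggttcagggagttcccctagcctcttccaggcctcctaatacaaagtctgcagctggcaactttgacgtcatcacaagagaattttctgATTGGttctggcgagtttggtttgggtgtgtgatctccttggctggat

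Each of the 3 windows held 1 match of the motif searched. AGGAAG was found in 29.5% and CCAAT in 33.8% of the 32851 windows of this length in the RefSeq table, so a match is common.

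The libraries differed widely in size. The kept barcodes per library ran from 47 to 875, the total of unique molecular identifiers (UMIs) from 170448 to 2309209, and the median UMIs per barcode from 1364 to 5928. Control 1, control 2 and HFHC 1 to 3 shared 33 to 65 cell barcodes in each pair, and every other pair at most 4. Each barcode was kept only where it had most UMIs, which removed 224 of 3416. Among the members, 39 had a barcode that also occurred in another library, and the kept library then held a median of 88.4% of its UMIs (lowest 75.4%). Control 4, labelled male, had Xist in 67 of 94 barcodes and none of 4 Y-linked genes in any, but it held no member. The labels name separate animals.

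Barcodes that met the rule made up most of HFHC 1 and HFHC 2 and little of the other 6 libraries. In those 2 libraries 16 of 28 and 30 of 43 of them carried 4 or more of 8 cholangiocyte genes, which goes against the label, and the C1q-rich members described later were 6 of 47 (12.8%, Wilson 95% interval 5.98 to 25.2) and 11 of 74 barcodes (14.9%, 8.51 to 24.7). All barcodes that met the rule were 28 of 47 barcodes in HFHC 1 (59.6%, 45.3 to 72.4). In HFHC 2 they were 43 of 74 (58.1%, 46.7 to 68.7). They were 27 of 857 in HFHC 3 (3.15%, 2.17 to 4.55) and 2 of 616 in HFHC 4 (0.325%, 0.0891 to 1.18). In the control libraries they were 2 of 55 (3.64%, 1.00 to 12.3), 6 of 875 (0.686%, 0.315 to 1.49), 1 of 574 (0.174%, 0.0308 to 0.98) and 0 of 94, which allows a share of up to 3.19%. These intervals and limits cover counting error only. The share in HFHC 3 thus lay below that in control 1, and the share in HFHC 4 lay within the range of the controls.

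**Figure D1:**
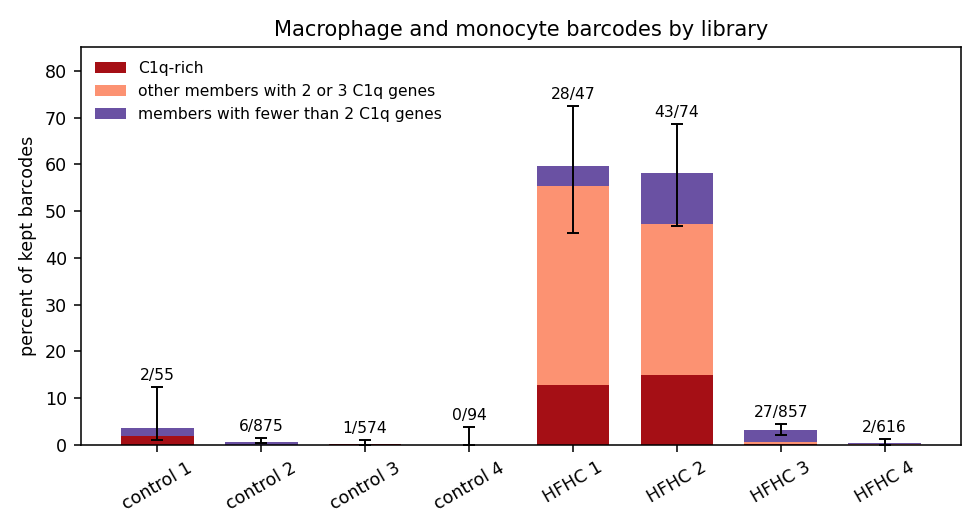
Bars give the percent of kept barcodes in each of the 8 libraries that met the rule, divided into C1q-rich members, other members with 2 or 3 C1q genes and members with fewer than 2. Whiskers are Wilson 95% intervals of the whole bar, and the numbers above are members over kept barcodes, with HFHC 1 and HFHC 2 above all other libraries.

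Control mice averaged a share of 1.12% ± 1.70 (SD, n = 4) and HFHC mice one of 30.3% ± 33.0 (SD, n = 4), a difference of 29.2 points that did not pass a two-sided exact permutation test (p = 0.2, adjusted over 3 shares 0.2, smallest p possible 0.0286). Members with 2 or more C1q genes averaged 0.498% ± 0.884 (SD, n = 4) and 25.8% ± 29.6 (SD, n = 4), with an exact p = 0.2 and an adjusted p = 0.2. Members with fewer than 2 averaged 0.626% ± 0.858 (SD, n = 4) and 4.45% ± 4.56 (SD, n = 4), with an exact p = 0.0857 and an adjusted p = 0.2. In this last share 3 of 4 HFHC libraries lay above every control library. The difference in all members was 0.614 points without HFHC 1 and HFHC 2 (exact p = 0.867, smallest p possible 0.0667), 19.4 without HFHC 1 alone, and 10.5 when members with 4 or more of 8 cholangiocyte genes were not counted (exact p = 0.2).

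A barcode's depth bears on a rule that counts detected genes. When every barcode with at least 1000 UMIs was thinned to that number, 11 of 42 barcodes of HFHC 1, 16 of 58 of HFHC 2, 14 of 738 of HFHC 3, 1 of 40 of control 1 and 2 of 556 of control 2 met the rule, and none did in the other 3 libraries. The difference was then 13.2 points (exact p = 0.257). At the edge of the rule, 33 barcodes had 3 rule genes, with a median of 2 C1q UMIs and 4 of 9 general myeloid genes, and 36 barcodes with no exclusion had 2 rule genes, with medians of 0 and 4. The 9 myeloid genes were Cd68, Tyrobp, Fcer1g, Lst1, Ctss, Aif1, Spi1, Mpeg1 and Ly86.

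The label held for some members and not for others. Among the 69 members with 2 or more C1q genes, the C1q genes together gave 2 to 382 UMIs per barcode. A C1q-rich set, defined after these values were seen, took members with at least 10 C1q UMIs and at least 40 per 10000 UMIs. It held 21 barcodes, 1 each in control 1 and control 3, 6 in HFHC 1, 11 in HFHC 2 and 2 in HFHC 3. These 21 barcodes carried 1202 of the 1498 C1q UMIs of all members (80.2%). Another 3 members with at least 10 C1q UMIs fell under the second minimum, and 28 had 5 to 9.

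The C1q-rich barcodes carried the general genes of macrophages. Their median was 8.5 of 9 myeloid genes in HFHC 1 and 7 of 9 in HFHC 2, against 4 and 3 in the other C1q members of the same libraries. Cholangiocyte genes, those of the epithelium of the bile ducts, ran the other way. None of 6 C1q-rich barcodes of HFHC 1 and 4 of 11 of HFHC 2 had 4 or more of Epcam, Krt7, Krt8, Krt18, Krt19, Sox9, Cldn7 and Cldn4. Of the members outside the C1q-rich set, 16 of 22 in HFHC 1 and 26 of 32 in HFHC 2 did. In all, 46 of 109 members had at least 4 of these 8 genes, all of them in HFHC 1 and HFHC 2, as did 8 of 19 and 17 of 31 barcodes outside the members there.

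**Figure D2:**
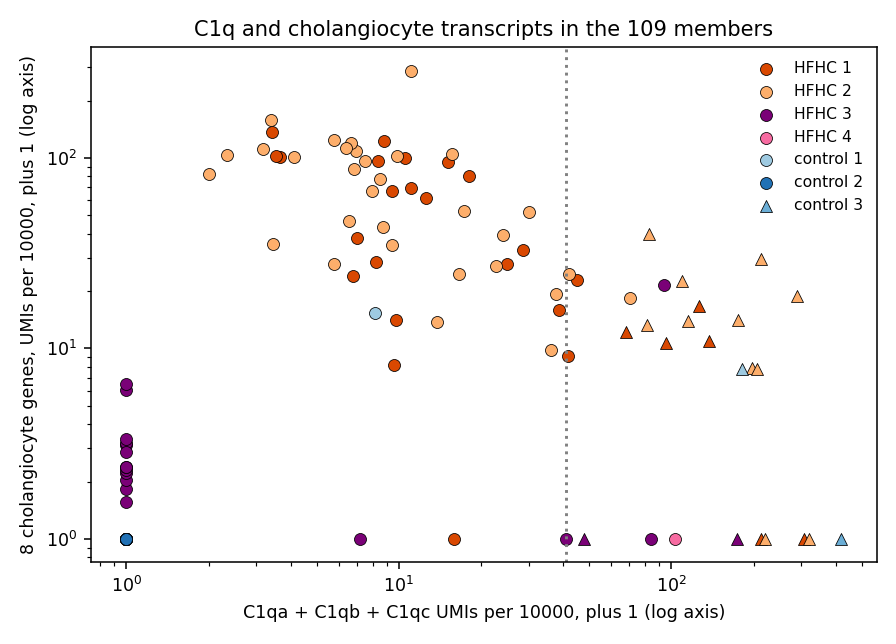
Each point is 1 of the 109 members, coloured by library, with C1q UMIs per 10000 on the horizontal and UMIs of 8 cholangiocyte genes per 10000 on the vertical log axis (1 added to both). Triangles are the 21 C1q-rich members and the dotted line is 40 per 10000, and most circles of HFHC 1 and HFHC 2 lie at low C1q and high cholangiocyte values.

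In HFHC 1 the 6 C1q-rich barcodes had 7016 C1qa, 8052 C1qb and 6458 C1qc CPM, the UMIs of a gene per 1000000 UMIs summed over the barcodes of a set, and the 20 other C1q members had 241, 432 and 263. In HFHC 2 the 11 C1q-rich barcodes had 5915, 5945 and 4607, and the 24 others 233, 258 and 258. Barcodes outside the members and below the C1q-rich level had 174, 329 and 155 CPM in HFHC 1 and 115, 136 and 189 in HFHC 2. The rule picks the other C1q members for having C1q transcripts, and they and these outside barcodes were both taken from below the C1q-rich cut. That they lay nearer to each other than to the C1q-rich set therefore follows from the choice of sets. In HFHC 1 these outside barcodes also included some left out only by their endothelial or B cell genes.

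C1q transcripts were common outside the members in HFHC 1 and HFHC 2. At least 1 C1q UMI was found in 15 of 19 barcodes outside the members in HFHC 1 (median 6509 UMIs, members 5588) and in 18 of 31 in HFHC 2 (median 1413, members 3835). These included all 11 sinusoidal endothelial barcodes of HFHC 1, by the rule's endothelial genes, and 12 of 17 with 4 or more cholangiocyte genes in HFHC 2. The share was 4 of 830 in HFHC 3 (median 2081.5 UMIs), 4 of 869 in control 2 (median 1359), 10 of 614 in HFHC 4 and 30 of 573 in control 3. It was 20 of 53 in control 1 and 10 of 94 in control 4. After thinning to 1000 UMIs it was 9 of 15 in HFHC 1, 5 of 19 in HFHC 2, 0 of 713 in HFHC 3 and 18 of 397 in control 3. Of the 19 outside barcodes of HFHC 1, 13 had 3 or more rule genes. They were left out only by their endothelial genes (11) or B cell genes (2), against 1 of 31 in HFHC 2. In HFHC 2, C1q at this low level was thus also found in barcodes that did not meet the rule. Of those 31, however, 12 had 2 rule genes and 1 reached the C1q-rich level. Whether they included macrophages was not tested. In HFHC 1 most outside barcodes had met the count of rule genes. The outside barcodes of these libraries therefore cannot show whether C1q at a low level marks a macrophage. The part of free RNA or of mixed droplets in this C1q detection was not tested.

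The levels of myeloid genes in the C1q-rich set are values of single libraries with no test, since C1q chose the set. Of 1242 genes with at least 20 counts in HFHC 1, 11.8% were 2-fold or more higher in the C1q-rich than in the other C1q members and 37.4% were lower. Of 1570 genes in HFHC 2, 9.68% were higher and 40% lower. Lysosomal genes with enough counts were higher in 15 of 18 and 17 of 19 cases, and MHC class II genes in 6 of 6 in both libraries. Cholangiocyte genes were lower in 13 of 13 and 13 of 14. On the log2(CPM + 10) scale the median difference was 2.10 and 2.47 for lysosomal, 2.08 and 3.88 for class II and -4.10 and -2.67 for cholangiocyte genes, beside -0.51 and -0.59 for all genes compared.

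Among lysosomal genes, the protease Ctss stood at 3906 against 205 CPM in HFHC 1 (ratio 19.1, exact 95% counting interval 12.4 to 30.2) and at 6331 against 213 in HFHC 2 (29.7, 20.5 to 44.3). Ctsb, another cathepsin, stood at 5501 against 768 and at 2824 against 491. Lyz2, the lysozyme of myeloid cells, stood at 8331 against 322 in HFHC 1 (25.9, 18.6 to 36.7) and at 8293 against 530 in HFHC 2 (15.7, 12.2 to 20.3). These genes of degradation and antimicrobial defence were thus higher in the C1q-rich barcodes of both libraries.

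Apoe, the apolipoprotein through which macrophages export cholesterol, stood at 52936 CPM in the C1q-rich barcodes of HFHC 1 and 66879 in those of HFHC 2, above 9498 and 12884 in the other C1q members. The cholesterol exporters Abca1 and Abcg1 had too few counts to compare, with 4 and 2 UMIs in all C1q-rich barcodes of the 2 libraries. Cholangiocyte transcripts went the other way, with Spp1, osteopontin, at 478 against 9124 CPM in HFHC 1 and 1486 against 15462 in HFHC 2, and the keratin Krt8 at 120 against 1639 and 268 against 2875. Spp1 is also listed as a gene of lipid-associated macrophages, and in HFHC 1 and HFHC 2 most of its UMIs in members with 2 or more C1q genes were outside the C1q-rich set.

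The C1q-rich barcodes of the 2 libraries differed in Kupffer genes. In those of HFHC 1, Cd5l, a secreted scavenger receptor protein, gave 104 UMIs and Clec4f, the lectin of mouse Kupffer cells, gave 53. A single barcode held 98 and 52 of these, together with 382 C1q UMIs. It also held all UMIs of this set for Vsig4 (23), the complement receptor of Kupffer cells, Folr2 (36) and Fcna (39). The Kupffer genes of this C1q-rich set therefore rested mostly on 1 barcode, which also occurred in 4 other libraries. The other members of HFHC 1 held such transcripts too. Over all its members, Cd5l gave 138, Clec4f 67, Vsig4 29, Folr2 39 and Fcna 50 UMIs. In HFHC 2, the 11 C1q-rich barcodes had 22 Cd5l UMIs in 4 barcodes, 2 Clec4f UMIs and 1 Vsig4 UMI, and no Folr2 or Fcna. Timd4, a receptor of long-resident Kupffer cells, was found in 2 of 109 members and Marco, a scavenger receptor, in 1.

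**Figure D3:**
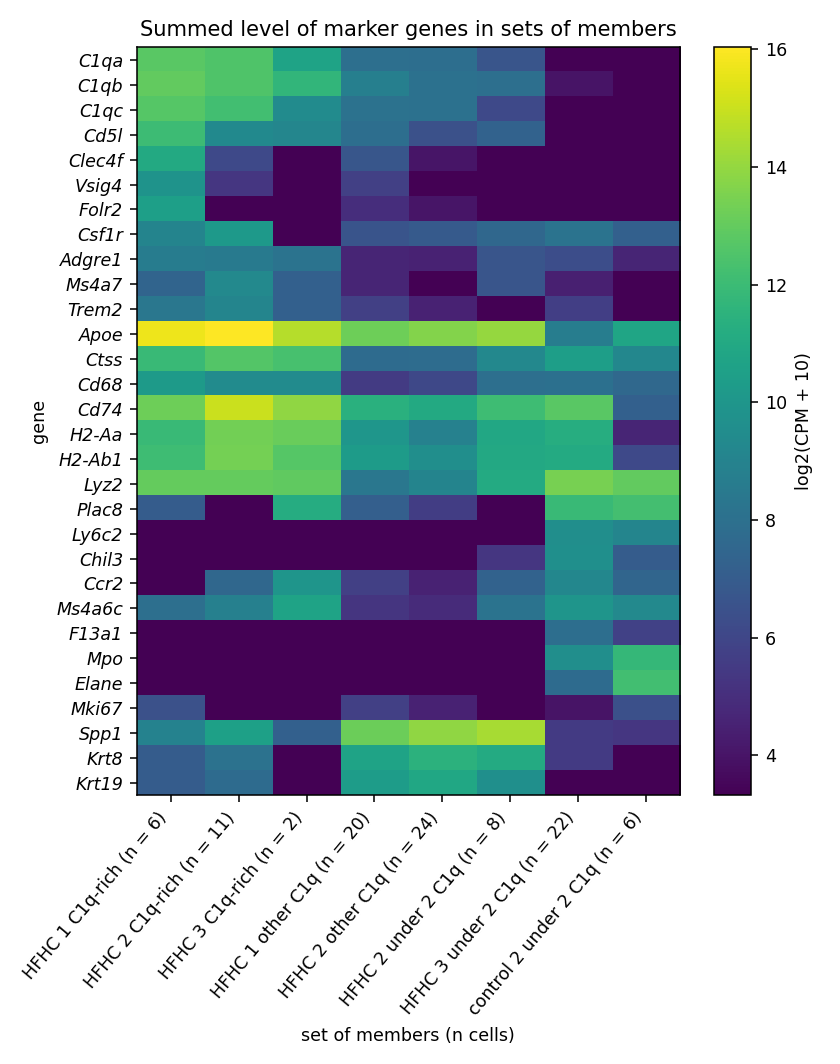
Colour gives log2(CPM + 10) of 30 genes (rows) in 8 sets of members (columns), with counts summed over the n cells of each set. C1q, Apoe and Ctss are high in the C1q-rich columns, Krt8 and Spp1 in the other columns of HFHC 1 and HFHC 2, and Ly6c2 and Chil3 in the last 2 columns.

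MHC class II genes were high in the C1q-rich barcodes of HFHC 2. Cd74 stood at 32904 CPM, H2-Aa at 10255 and H2-Ab1 at 10701, against 9447, 3906 and 4385 in HFHC 1. All 11 barcodes had Cd74, H2-Aa and H2-Ab1. Genes of lipid-associated macrophages were sparser, with Trem2, a lipid receptor, at 18 UMIs in 3 barcodes, Gpnmb at 14 in 2, Ms4a7 at 21 in 6 and Mmp12, a matrix protease, at 20 in 5. In HFHC 1 the same genes gave 8, 3, 4 and 5 UMIs. The chemokine Ccl4 gave 74 UMIs in 3 barcodes of HFHC 2 and 14 in 5 of HFHC 1.

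Monocyte genes of the rule were partly present in the C1q-rich barcodes. Ly6c2 and Chil3 gave 0 UMIs in the 17 C1q-rich barcodes of HFHC 1 and HFHC 2. Ccr2, the receptor that brings monocytes out of the marrow, gave 0 UMIs in HFHC 1 and 6 UMIs in 3 barcodes of HFHC 2. Ms4a6c, a membrane protein of monocytes, gave 6 UMIs in 4 barcodes and 15 in 7. HFHC 3 had 5 members with 2 or more C1q genes, 2 of them C1q-rich with 31 and 10 C1q UMIs. The first of these also had 7 Ccr2 and 12 Ms4a6c UMIs among 6641. C1qa, C1qb and C1qc took 32.6%, 37.4% and 30% of the C1q UMIs in the C1q-rich set of HFHC 1 and 35.9%, 36.1% and 28% in that of HFHC 2.

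Over all libraries, members with 2 or more C1q genes were set beside the other 40 as a description. Besides C1q, the leading genes included Cd5l (493 against 24.4 CPM), Igf1, a growth factor (211 against 38.4), Apoe and the metallothionein Mt1, and also Krt8 (1871 against 436). Higher in the other members were, among others, Chil3 (0 against 513 CPM), S100a4, a calcium-binding protein of motile leukocytes (21.9 against 1046), Cd209a, a lectin of monocyte-derived dendritic cells (8.22 against 237), Ms4a4c (19.2 against 331), Coro1a (184 against 1472) and Lyz2 (1901 against 8670). Cd209a was found in 1 of 69 and 6 of 40 members. The first list thus held both macrophage genes and the bile duct keratin Krt8. Cd5l and Chil3 are themselves genes of the rule. Members with fewer than 2 C1q genes had to meet the rule by its other genes, so their higher Chil3 follows in part from the choice. This contrast pools libraries, since most C1q members lay in HFHC 1 and HFHC 2 and most others in HFHC 3 and control 2. Within HFHC 2 the differences were small, with Cd5l at 180 against 152 CPM, Igf1 at 133 against 121, Krt8 at 2410 against 2152 and Lyz2 at 1916 against 2182.

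The 40 members with fewer than 2 C1q genes were mostly in HFHC 3, with 22, and control 2, with 6. HFHC 2 had 8, of which 6 had 4 or more cholangiocyte genes, HFHC 1 had 2, and control 1 and HFHC 4 had 1 each. In HFHC 3 and control 2 no member had 4 or more cholangiocyte genes, and the myeloid genes detected were a median of 8 and 7.5 of 9. Only 1 C1q UMI was found in the 22 barcodes of HFHC 3 and none in the 6 of control 2. Clec4f, Vsig4 and Cd5l were at 0 in all 28. The low C1q follows from how this set was chosen and says nothing more of its label, and its other transcripts divided it further.

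Among these 28 barcodes, 3 of 6 in control 2 and 10 of 22 in HFHC 3 had at least 100 Lyz2 UMIs per 10000. At least 100 Cd74 UMIs per 10000 were found in none of control 2 and in 7 of HFHC 3, 1 of which was also high in Lyz2. At least 10 UMIs of Mpo, Elane, Ctsg, Prtn3 and Ms4a3, genes of the granules and membrane of neutrophil and monocyte precursors, were found in 2 of control 2 and 2 of HFHC 3. The remaining 1 and 4 barcodes met none of these counts. These 3 minima were chosen after the values were seen.

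**Figure D4:**
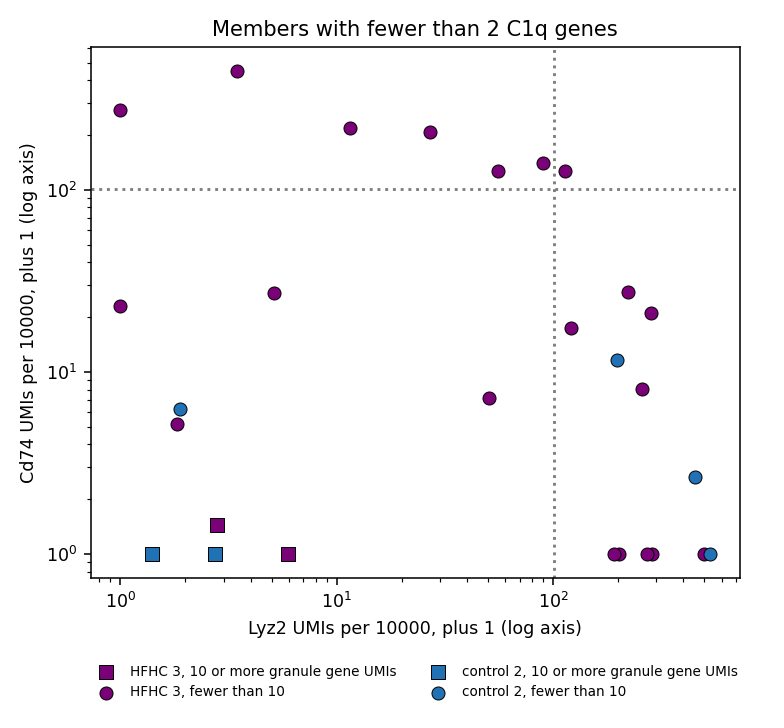
Each point is 1 of 28 members with fewer than 2 C1q genes in control 2 (blue) or HFHC 3 (purple), with Lyz2 and Cd74 UMIs per 10000 (1 added, log axes), and dotted lines at 100 per 10000. Squares have 10 or more UMIs of 5 granule genes, and the upper left of the plot, with high Cd74 and low Lyz2, holds barcodes of HFHC 3 only.

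The classical monocyte genes Ly6c2, Chil3 and Ccr2 are genes of the rule, so finding them in these members follows in part from the choice. Most Lyz2-high barcodes had some of them. Of the 10 in HFHC 3, 9 had Ly6c2, 9 had Chil3 and 8 had Ccr2. Of the 3 in control 2, 2 had Ly6c2, 1 had Chil3 and 2 had Ccr2, and 1 had none of these 3 genes. The barcode of HFHC 3 with most Chil3 had 72 Chil3, 219 Lyz2, 9 Ccr2 and 14 Ms4a6c UMIs among 8506. Other kinds of barcode carried such genes too: in control 2, 23 of 36 Ly6c2 UMIs and 256 of 316 of Plac8, a small cysteine-rich protein of myeloid cells, lay in the 2 granule-gene barcodes.

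The Cd74-high barcodes of HFHC 3 varied in other antigen-presenting genes. The highest had 362 Cd74, 167 H2-Aa, 2 Flt3 and 2 Lyz2 UMIs among 8126. Flt3, the receptor for the growth factor of dendritic cells, was found in 4 of the 7 Cd74-high barcodes. Over the whole set it was found in 7 of 22 barcodes of HFHC 3, 2 of them granule-gene barcodes, and in 2 of 6 of control 2. Cd209a was found in 5 of 22 and 0 of 6. Xcr1, which marks cross-presenting dendritic cells, was at 0 in all 109 members. Since Ccr2 and Ms4a6c occur in some dendritic cells, the rule can take these in.

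The granule-gene barcodes were the deepest of each set. In control 2 they had 865 and 42 UMIs of the 5 genes, among 24948 and 17286, and in HFHC 3 they had 240 and 166, among 22409 and 18077. Elane, neutrophil elastase, gave 302 UMIs in 1 barcode of control 2 and 36 in 2 of HFHC 3. Mpo, myeloperoxidase, gave 233 in 2 and 132 in 3. These genes were at 0 in the members of HFHC 1 and HFHC 2.

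HFHC 3 and control 2, which share barcodes, are the only libraries of opposite diets with at least 5 members of fewer than 2 C1q genes each and no cholangiocyte-rich member. With 1 library per diet their ratio has no test, and its interval covers counting error only. Of 1718 genes with at least 20 counts, 15.3% were 2-fold or more higher and 7.45% 2-fold or more lower in HFHC 3. MHC class II genes were higher in 7 of 7 cases, monocyte genes in 11 of 17, inflammatory genes in 7 of 10 and general myeloid genes in 6 of 16. Genes of proliferation were lower in 7 of 12 and higher in none. The monocyte list includes the monocyte genes of the rule, by which these barcodes were chosen. The 2 granule-gene barcodes held 42234 of the 65625 UMIs of the control 2 set and 40486 of 171896 in HFHC 3. Without them, a comparison added after seeing the data, 20 barcodes were set against 4, and 17.6% of 1190 genes were higher and 7.73% lower. MHC class II genes were then higher in 6 of 7 cases, monocyte genes in 5 of 17, with 2 lower, inflammatory genes in 8 of 10 and general myeloid genes in 3 of 16, and proliferation genes were lower in 4 of 6.

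Cd74 stood at 6934 CPM in HFHC 3 and 137 in control 2, a ratio of 50.6 (26.5 to 111), and H2-Ab1 at 2176 and 61.0, a ratio of 35.7 (13.8 to 132). H2-Aa, whose promoter is given above, had 421 UMIs in 9 barcodes of HFHC 3 and 1 UMI in control 2, a ratio of 161 (28.7 to 6363). H2-Eb1 had 198 UMIs against 0, which makes it at least 25.2-fold higher at a limit of 3 counts over the set. Without the granule-gene barcodes the ratio of Cd74 was 23.6 (12.4 to 51.6) and that of H2-Aa 74.9 (13.4 to 2967), H2-Eb1 was at least 11.7-fold higher, and H2-Ab1, with 372 UMIs against 0, at least 22.1-fold higher. The median class II difference was 4.95 on the log2(CPM + 10) scale, beside 0.05 for all 1718 genes, 1.63 for monocyte, 2.58 for inflammatory, 0.79 for general myeloid and -1.01 for proliferation genes. The class II difference sits beside the 7 Cd74-high barcodes of HFHC 3, which control 2, with 6 barcodes, did not hold. Whether it would be seen between monocytes of the same kind was not tested.

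Several chemokines were also higher in HFHC 3, while the ratios of monocyte genes depended on the granule-gene barcodes. Ccl4 stood at 745 against 45.7 CPM (ratio 16.3, 5.45 to 80.0) and Cxcl2, which attracts neutrophils, at 617 against 45.7 (13.5, 4.49 to 66.5). Ccl5 had 257 UMIs in 9 barcodes against 0, at least 32.7-fold higher, and this chemokine is also made by T and NK cells. Chil3 had a ratio of 6.59 (3.25 to 15.6), Cybb, the NADPH oxidase subunit of phagocytes, 7.41 (3.07 to 23.3), Ccr2 3.40 (1.82 to 7.04) and F13a1, a coagulation factor of monocytes, 5.09 (1.62 to 25.7). Ly6c2, with 1.41, and Plac8, with 0.81, were near 1. Chil3, Ccr2 and Ly6c2 are genes of the rule that chose these barcodes, so their ratios are a description that the choice itself affects. Without the granule-gene barcodes Chil3 had a ratio of 3.07 (1.52 to 7.25), Cybb 3.45 (1.43 to 10.9), Ccr2 1.54 (0.82 to 3.18) and F13a1 2.37 (0.76 to 11.99), so the intervals of Ccr2 and F13a1 then held 1. Ccl4 then had a ratio of 10.5 (2.84 to 87.7), Cxcl2 6.29 (2.09 to 31.0), and Ccl5 was at least 15.01-fold higher. Lyz2 went from 10791 against 8137 CPM to 14017 against 22658, which turns its direction, and Plac8 turned to 1.31 (0.99 to 1.74). Of the T and NK cell genes, Cd3e, Cd8a and Trac were at 0 in both sets, Gzma gave 52 UMIs in 1 barcode of HFHC 3, and Nkg7 gave 34 UMIs in HFHC 3 and 41 in control 2.

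Among the 128 genes that were lower in HFHC 3 were the 5 granule genes and 7 of proliferation. Elane had a ratio of 0.045 (0.031 to 0.064), Mpo 0.22 (0.17 to 0.27), Ctsg 0.20 (0.15 to 0.27), Top2a, a topoisomerase of dividing cells, 0.069 (0.017 to 0.20) and Hmgb2, a chromatin protein, 0.27 (0.20 to 0.38). In control 2 all 302 Elane UMIs came from 1 of 6 barcodes. Apoe had a ratio of 0.24 (0.17 to 0.32). Without the granule-gene barcodes the ratios were 0.11 (0.082 to 0.16) for Apoe, 0.33 (0.19 to 0.58) for Hmgb2 and 0.020 (0.00045 to 0.14) for Top2a, whose 9 remaining UMIs in control 2 were in 1 barcode.

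**Figure D5:**
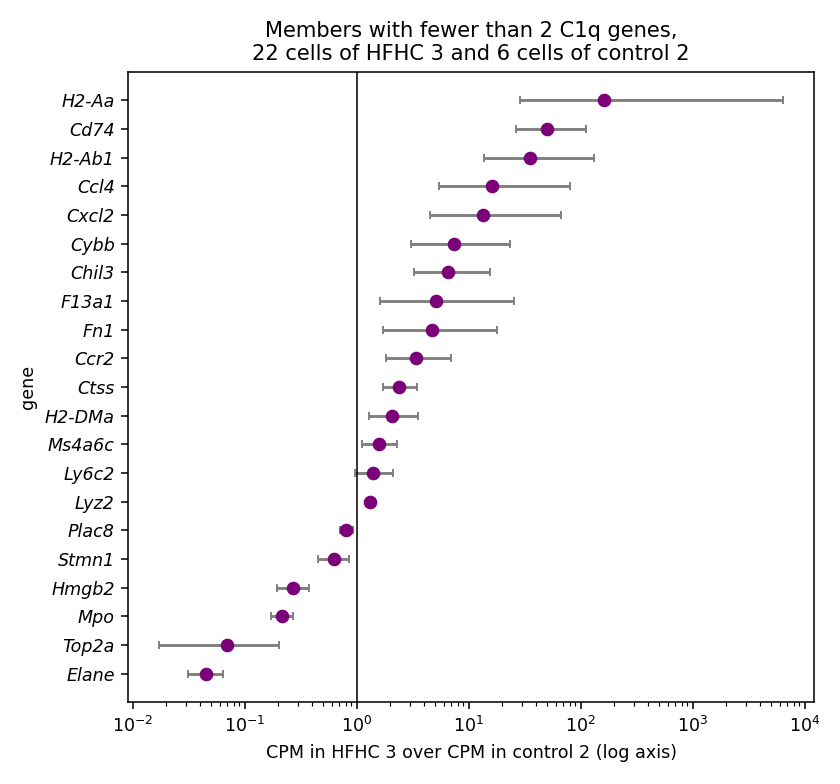
Points are the ratio of CPM in 22 members of HFHC 3 to CPM in 6 members of control 2, all with fewer than 2 C1q genes, and bars are exact 95% counting intervals on a log axis. MHC class II genes and chemokines lie to the right of 1, and Elane, Top2a and Mpo to the left.

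Across all genes, summed members were compared between the diets with edgeR's quasi-likelihood test in the libraries with at least 5 members, which left control 2 (6 barcodes) against HFHC 1, HFHC 2 and HFHC 3. This comparison has 1 control library, and the spread comes from the HFHC libraries alone. No gene of 4413 passed an adjusted p of 0.05 (0% higher and 0% lower), while 211 had an unadjusted p under 0.05. DESeq2 called 0 as well. In none of the 29 gene lists did a member pass. The members with 2 or more C1q genes could not be tested between diets, since the 4 control libraries held 2 such barcodes.

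The genes with the smallest p are given as values. H2-Aa stood at 15.2 CPM (1 UMI) in control 2 and at 1435, 2177 and 2743 in HFHC 1 to 3, a log2 difference of 7.12 (SE 1.18, edgeR adjusted p = 0.755). H2-Ab1 stood at 61.0 and at 1670, 2471 and 2398 CPM, a log2 difference of 5.21 (SE 0.96, edgeR adjusted p = 0.755). H2-Eb1 had 0 UMIs in control 2 and 180, 445 and 246 in HFHC 1 to 3. Every HFHC library lay above control 2 in these 3 genes, but how often this held over all genes tested was not counted. The summed class II list stood at 655 CPM in the members of control 2 and at 3830 in its other barcodes, whose summed B cell list stood at 4118. It stood at 37234 CPM in the 2 members of control 1 and 53892 in the 1 member of control 3. Both lay above the 8229, 14128 and 15143 CPM of HFHC 1 to 3. Low class II was thus found in the members of control 2 and not in all control members.

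Icam1, an adhesion molecule, had 0 UMIs in control 2 and 31, 40 and 23 in HFHC 1 to 3, and Gadd45b, a stress gene, had 1 against 32, 62 and 52. Lower in HFHC were Top2a at 335 CPM against 11.5, 4.52 and 21.9 (log2 difference -4.60, SE 0.78, edgeR adjusted p = 0.755) and the mitotic gene Ube2c at 305 against 28.7, 4.52 and 10.9. The chromatin genes Hmgn2 and H2afx and the serine synthesis enzyme Phgdh completed this list, with log2 differences of -2.04, -2.53 and -2.65. The 22 Top2a UMIs of control 2 came from 3 of its 6 barcodes. All these genes had the same adjusted p of 0.755 in edgeR.

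The count of calls depended on HFHC 3 and on the members with bile duct genes. Without HFHC 3, which leaves the 2 libraries rich in cholangiocyte genes against control 2, edgeR called 853 genes, 567 higher and 286 lower. Without members that had 2 or more of the 8 cholangiocyte genes, which leaves 46 members, it called 10, 9 higher and 1 lower, with H2-Aa at an adjusted p of 0.0321 and H2-Eb1 at 0.0217 in edgeR. With every barcode copy kept, control 1 came in as a second control library. No gene was then called and the class II differences turned, with H2-Aa at a log2 difference of -0.67. The members added this way are copies of barcodes kept in another library. In control 2 the share of members with 2 or more C1q genes went from 0% to 0.436%. Control 1 reached the minimum of 5 members only through such copies, so it was not an independent second control. The summed cholangiocyte list stood at 23512, 32912 and 175 CPM in the members of HFHC 1 to 3 and at 45.7 in those of control 2.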

How the data were processed

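The deposited table holds raw UMI counts per gene and barcode for 31053 genes and 3416 barcodes. The authors used Cell Ranger 3.0.1 and Seurat with mm10, per the submitters' processing notes. For Seurat's version, and for the gene annotation, the sources used here hold no entry. These whole-number counts were read with Python 3.11.15. The members and the gene lists were chosen with earlier results of these data known, and the C1q-rich set and the Lyz2, Cd74 and granule gene minima after the values were seen.

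For shares per library, the exact permutation test was two-sided and ran through 70 assignments of mice to diets. Counts summed over members per library went into the robust quasi-likelihood test of edgeR 4.0.16 in R 4.3.3, with TMM scaling, the filterByExpr filter and a Benjamini-Hochberg threshold of 0.05, and with DESeq2 1.42.0 as an alternative. The SE is the absolute log2 difference over the square root of F. Named genes were to be the 10 largest rises and falls past the threshold with at least 50 CPM and no overlap, or, with under 5 calls, the 5 smallest p each way, besides rule genes and up to 8 genes of each list. Sex-linked, haemoglobin, immunoglobulin, ribosomal, mitochondrial and predicted genes and genes of other cell types were left out. Ratios of 2 sets needed 20 counts, and their leading genes were the 15 largest each way.

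On simulated counts of the layout of control 2 against HFHC 1 to 3 (4202 genes, 200 changed), edgeR made 57 calls, of which 2 were false. It found 0% of the genes set to 2-fold, 4% at 4-fold, 34% at 8-fold and, at 32-fold, 72%. The simulation gave every gene the same dispersion and every library the same base levels, and changed only genes of high mean level. The real members of HFHC 1 to 3 were less alike, with the cholangiocyte list at 23512, 32912 and 175 CPM. The percents found therefore do not measure what the test could find in these data. Scrublet called 7 members doublets, all in HFHC 1, and in 2 libraries it called none. No doublet was removed in the results as reported. Gene positions came from GENCODE vM21 and promoter windows from RefSeq. Permutation p-values of the shares measure the spread between the mice sequenced. Those of the main gene test rest on the spread between the HFHC mice alone, since it had 1 control library.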

Additional observations from a re-analysis of the deposited data

Results flagged for a closer look

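Among the 4 control libraries, the share of members with 2 or more C1q genes was 1.82% in control 1, 0% in control 2, 0.174% in control 3 and 0% in control 4. The gap of control 1 to the nearest other library was 0.904 of the whole range, above Dixon's 95% critical value for 4 samples. The value of control 1 rests on 1 of 55 barcodes. Chance alone passes this limit in about 1 of 20 groups of normally distributed values. The shares here came from counts of 0 or 1 barcode in libraries of unequal size, so that rate need not hold for them.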

How the results depend on the processing

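Few members per control library limit every comparison between the diets: the 4 control libraries held 9 members, and 6 of these were in 1 library. The difference in share kept its sign under every alternative run for all members and for members with fewer than 2 C1q genes. For members with 2 or more C1q genes it was -0.125 points without HFHC 1 and HFHC 2, a setting added after seeing the data. Leaving out 1 library moved the difference from 19.4 to 39.2 points for all members, from 15.5 to 33.9 for those with 2 or more C1q genes and from 1.70 to 5.25 for those with fewer than 2. The lowest values came without HFHC 1 for the first 2 and without HFHC 2 for the last. As percent of leukocyte barcodes the 3 differences were 57.1, 26.6 and 30.5 points, with no value for control 3, which had 0 such barcodes, and with HFHC 4 at 100% for the first and last from 1 such barcode. Without HFHC 4, added after seeing the data, they were 44.5, 36.5 and 8.04 points (exact p = 0.1, 0.2 and 0.2). The share with fewer than 2 C1q genes passed the exact test without HFHC 4 (p = 0.0286, not adjusted, and the smallest this layout allows). That setting, among the many run, drops the HFHC library that did not lie above every control library. With the replicate block, an exact sign permutation over animals of the same number, the 3 differences were 29.2, 25.3 and 3.82 points, each with p = 0.125, the smallest that 4 pairs allow. The numbers only name animals, and HFHC 4 has number 14 in its title. No paired analysis was possible because the gene test had 1 control library and the block left no residual degrees of freedom.

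The count of genes called between the diets was 0 with DESeq2, with its size factors in edgeR, at a minimum of 3 members, without Scrublet doublets, with every barcode copy kept and among the barcode-sharing libraries. It was 41 with no filter on low counts and 10 without members carrying 2 or more cholangiocyte genes, and leaving out 1 HFHC library gave 0 to 853. The causes were not tested. The minimum of 3 members and the limit to the barcode-sharing libraries kept the same libraries and members as the main fit. These settings therefore repeat that fit and do not check it. With every copy kept, which adds copies of barcodes kept in another library, the log2 differences of H2-Eb1, H2-Aa and H2-Ab1 were -1.10, -0.67 and -0.56. A minimum of 10 members, 4 rule genes, or leaving out control 2 left no control library, so these were not run, and nor were the alternatives for members with 2 or more C1q genes. Without the granule-gene barcodes, the ratio of HFHC 3 to control 2 turned for Lyz2 (0.62) and Plac8 (1.31).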

Other observations

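The barcode richest in C1q outside the members lay in HFHC 1, with 371 C1q UMIs among 15652. It had 12 of the 14 rule genes and was left out because it also had all 4 endothelial genes. A second barcode of HFHC 1 had 232 C1q UMIs among 10814 and was left out for 2 B cell genes. Both had all 9 general myeloid genes, and both barcodes occurred in 5 libraries. In all, 22 barcodes with 3 or more rule genes were left out, 20 by the endothelial and 2 by the B cell genes, and 13 of these lay in HFHC 1.

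Control 1 and control 3 held 1 C1q-rich barcode each. The C1q-rich barcode of control 1 had 53 C1q, 41 Cd74 and 44 H2-Aa UMIs among 2928, with all 9 general myeloid genes and no Cd5l or Clec4f. That of control 3 had 14 C1q UMIs and 1 Clec4f UMI among 334.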
